A study of Mus musculus with 4 samples.

Results

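The mouse mitochondrial genome carries 37 annotated genes, and all of them, the genes whose symbol starts with mt-, are described here across sorted submandibular gland cells of 2 ages. They are 37 of the 53465 genes counted in each library. There are 13 protein-coding genes, 2 ribosomal RNA (rRNA) genes and 22 transfer RNA (tRNA) genes, 28 annotated on the plus and 9 on the minus strand. All were chosen by location, not by their values.

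The cells came from the submandibular gland, a salivary gland, of C57BL/6J mice of the genotype Fgf10CreERT2:Rosa26Tomato fl/fl. In such mice a Cre recombinase under Fgf10 control, active after tamoxifen, switches on a red reporter in cells that express Fgf10 at that time. Both ages carried these alleles and both received tamoxifen at 0.1 mg per g of body weight: the adults, sorted at postnatal day 60, on days 57 and 58, and the pups, sorted at day 7, on days 4 and 5. Each age has 2 libraries, made from 1 ng of total RNA with a full-length cDNA kit, SMART-Seq HT, which does not mark strand. The comparison in the design is adult against pup. Whether the 2 libraries of an age stem from different animals is not stated, so their spread may be technical only. The reporter marks cells by Fgf10 expression and not by cell type, and cells keep the mark after Fgf10 falls.

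Mitochondria transcribe both strands of a small circular genome into long precursor RNAs. The tRNAs lie between the other genes, and enzymes cut them out, which frees the mRNAs and rRNAs. The mRNAs encode core membrane subunits of respiratory chain complexes I, III and IV and of complex V, the ATP synthase. Every other subunit, and the proteins that copy, transcribe and translate mitochondrial DNA, comes from nuclear genes. In salivary glands the striated ducts are known for dense mitochondria, and ionocytes, rare duct cells that move ions, are a mitochondria-rich cell type.

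A stretch of the mitochondrial genome has an almost perfect copy in the nucleus, and the genes that lie whole in that stretch had few or no counts. Sequences were read from the GENCODE vM21 transcripts of build GRCm38. mt-Nd3, a complex I subunit gene at chrM:9459-9806 on the plus strand, is shown beside its nuclear copy Gm28438, an unprocessed pseudogene at chr1:24612775-24613119 on the minus strand, because the pair shows how little separates them. The first 200 bases of each are printed, chrM:9459-9658 and chr1:24612920-24613119. The capital marks the only base that differs over the 345 bases of the copy, T3C, with positions counted from the first base of mt-Nd3.

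mt-Nd3: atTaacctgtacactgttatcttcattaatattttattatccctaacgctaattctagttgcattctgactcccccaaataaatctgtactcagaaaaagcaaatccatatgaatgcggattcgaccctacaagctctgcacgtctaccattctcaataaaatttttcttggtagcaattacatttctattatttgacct
Gm28438: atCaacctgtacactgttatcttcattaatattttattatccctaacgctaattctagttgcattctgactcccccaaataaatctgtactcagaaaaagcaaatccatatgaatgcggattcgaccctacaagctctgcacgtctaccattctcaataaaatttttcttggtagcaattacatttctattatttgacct

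For mt-Nd4l, another complex I subunit gene at chrM:9877-10173, no base differed from its copy Gm10222 over the 294 bases of the copy. It is shown once.

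mt-Nd4l: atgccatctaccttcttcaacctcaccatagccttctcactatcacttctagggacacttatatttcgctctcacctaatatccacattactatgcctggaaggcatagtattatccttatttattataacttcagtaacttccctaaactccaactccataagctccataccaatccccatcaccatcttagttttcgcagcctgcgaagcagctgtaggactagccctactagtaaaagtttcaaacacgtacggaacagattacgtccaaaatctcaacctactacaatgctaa

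Along chromosome 1, 7 such pseudogenes lie in one run on the minus strand at chr1:24611535-24616197, in the order of the mitochondrial genes. The run spans 4663 bases and matches chrM:6381-11042, a span of 4662 bases, from within mt-Co1 to within mt-Nd4. Identity was 100% for the copies of mt-Co2, mt-Atp6, mt-Co3, mt-Nd4l and part of mt-Nd4, 99.7% for mt-Nd3 and 98.8% for part of mt-Co1. mt-Atp8 has no annotated copy of its own, but the gap between the copies of mt-Co2 and mt-Atp6, where it would lie, is 233 bases long in both genomes.

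Each gene was then read in overlapping windows of 50 bases. All windows of mt-Co2 (100%) also occurred in an annotated nuclear transcript, as did 99.5% of those of mt-Atp6, 99.9% of mt-Co3, 98.0% of mt-Nd3 and 98.8% of mt-Nd4l. The share was 62.2% for mt-Nd4, 51.1% for mt-Co1, 8.19% for mt-Nd2, 7.61% for mt-Nd5 and 1.04% for mt-Rnr2. It was 0% for mt-Rnr1, mt-Nd1, mt-Nd6 and mt-Cytb, and also for mt-Atp8, for which the annotation holds no nuclear transcript. A read that matches 2 places equally well is not unique, and such reads stand in a separate tally in these files.

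The mRNAs with 98.0% or more of their windows in nuclear transcripts had few or no counts, and so did mt-Atp8 with 0%. mt-Co2 had 0, 1, 0 and 0 counts in adult replicates 1 and 2 and pup replicates 1 and 2, and all further sets of 4 values keep this order. mt-Atp8 had 0, 1, 0 and 0 counts, mt-Atp6 had 1, 0, 0 and 1, mt-Co3 had 2, 0, 0 and 0, and mt-Nd4l had 0 in every library. mt-Nd3 had 82, 93, 2 and 44. These 6 mRNAs, and the tRNAs mt-Ts1, mt-Td, mt-Tk, mt-Tg and mt-Tr with 3 counts in all, are the 11 genes that lie whole inside the matching interval. Such counts do not show that the RNAs were absent, and these 11 genes gave no reliable level at either age. Low tRNA counts were not particular to the interval. Outside it mt-Ti, mt-Tw, mt-Ty and mt-Th also had 0 in every library, while mt-Tp had 418, 352, 33 and 100.

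Few reads were assigned to the copies. Summed over the 7 copies on chromosome 1, the counts were 113, 126, 8 and 49. The 3 copies with the most counts were Gm13340, a copy of mt-Co1 on chromosome 2 (167, 294, 17 and 73), Gm13341, a copy of mt-Co2 on chromosome 2 (108, 127, 10 and 23), and Gm28437, the copy of mt-Co3 on chromosome 1 (55, 53, 3 and 24). Over all 15 nuclear genes that share a 50-base window with a mitochondrial gene, the sums were 446, 607, 99 and 162, with 1 of them not in the count files. Reads that were not unique made up 19.0%, 18.7%, 6.93% and 16.8% of all reads tallied, and the files do not say which genes they came from.

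**Figure D1:**
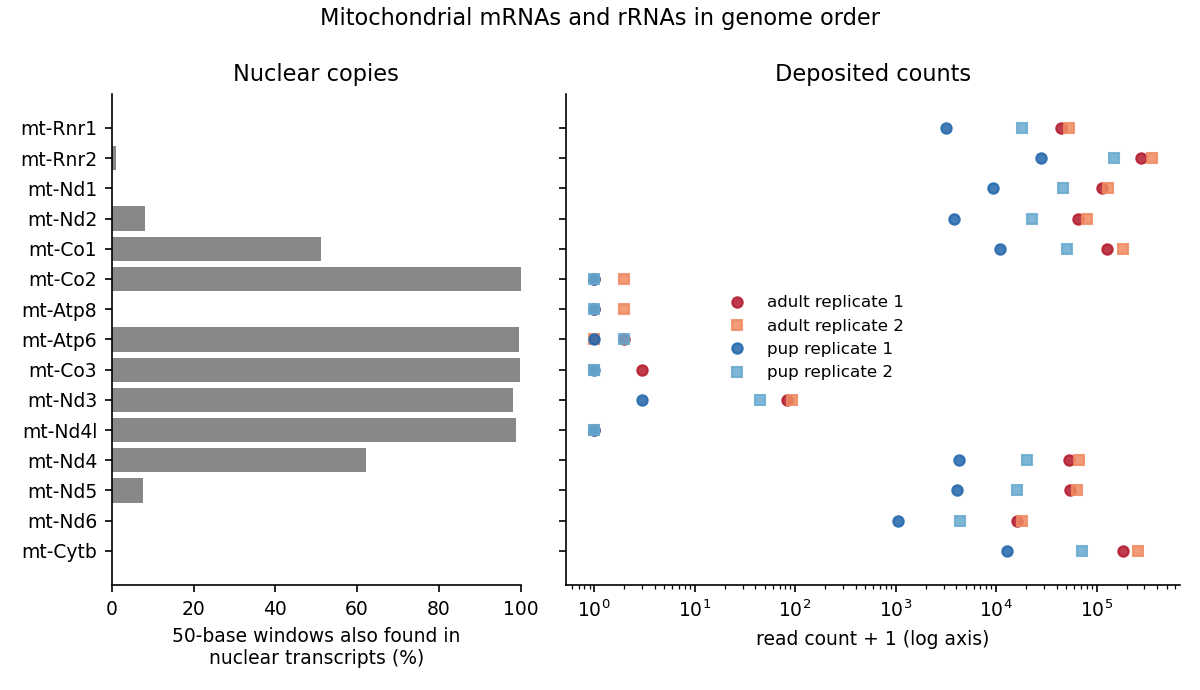
Share of 50-base windows of each mitochondrial mRNA and rRNA found in annotated nuclear transcripts (left, percent) and its deposited count plus 1 in each library (right, log axis), in genome order. The genes from mt-Co2 to mt-Nd4l have at most 93 counts in any library, and the others have at least 1054.

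The libraries differ in ways that touch every result below. Counts over genes came to 13791730, 16585518, 7289792 and 21490686. Pup replicate 1 stands apart: 76.7% of its reads fell in no annotated feature, against 9.70% to 10.6% in the others. In it 44734 genes had a count (16805 to 19764 in the others), and of 1092 olfactory receptor genes, which salivary cells are not known to use, 96.7% had a count (1.56% to 7.78%). A background estimated from these receptor genes came to 20.5% of its gene counts. The mitochondrial share, the median fold change of the mitochondrial genes and the medians of the nuclear lists are therefore also given without that library. With 2 libraries against 2, an exact permutation test cannot give a p below 0.333, and the values of each library are the result.

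Some cell type marker lists also differed between the ages. CPM are counts scaled to a common library size with edgeR's TMM factors. Fgf10 itself stood at 195, 40.3, 27.3 and 24.1 CPM. The summed level of 15 ionocyte markers was 9559, 5749, 371 and 519 CPM and that of 14 epithelial markers was 12412, 15856, 2005 and 4613 CPM, in both lists with every marker counted in every library and with the ages not overlapping. The sum of 12 mesenchymal markers ran the other way, at 1420, 22637, 26809 and 61665 CPM, again with all 12 counted in every library. The sums of 9 acinar markers were 563, 48887, 642 and 1990 CPM, high in adult replicate 2 alone, with 4 of 9 counted in adult replicate 1 and all 9 in the others. The 7 endothelial markers summed to 0.0766, 962, 122 and 6.36 CPM, highest in adult replicate 2. The 7 leukocyte markers summed to 24.5, 18.9, 105 and 13.1 CPM, and the 8 skeletal muscle markers to 6.44, 11.6, 410 and 4.52 CPM. Both lists were highest in pup replicate 1, the library with the high background. These sums are not corrected for that background, and its part in them was not tested. The 6 erythroid markers summed to 0.230, 12.7, 5.52 and 4.26 CPM. The 6 nerve and Schwann cell markers summed to 26.7, 56.2, 114 and 184 CPM, higher in both pups. Cd3e, Adgre1, Myh4, Myh2, Tnnt3 and Snap25 were at 0 in both adults, and Hba-a2 was at 0 in both pups. The part of these marker differences in the mitochondrial results was not tested. In such bulk samples, fewer cells of a type and less RNA per cell cannot be told apart.

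Mitochondrial transcripts took a larger share of the counts in adult than in pup cells. Summed over the 37 genes, the counts were 931801, 1211383, 77721 and 399595. Their share of gene counts was 6.76% (95% Wilson interval 6.74 to 6.77) in adult replicate 1, 7.30% (7.29 to 7.32) in adult replicate 2, 1.07% (1.06 to 1.07) in pup replicate 1 and 1.86% (1.85 to 1.87) in pup replicate 2. Both adults lay far above both pups, and the gap between the ages exceeded the gap within either. The intervals cover counting error only, since PCR copies without molecular identifiers are not independent molecules. The mean was 7.03% ± 0.387 (SD, n = 2) in adults and 1.46% ± 0.561 (SD, n = 2) in pups, a ratio of 4.81 with an exact two-sided permutation p of 0.333, the smallest that 4 libraries allow.

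The choice of denominator changed the levels and left the order of the ages as it was. As a share of all reads tallied, the 37 genes made up 4.53%, 4.95%, 0.167% and 1.27%. Against nuclear protein-coding plus mitochondrial genes the shares were 6.97%, 7.50%, 1.18% and 1.93%. With the estimated background removed from the counts of nuclear genes they were 6.76%, 7.31%, 1.34% and 1.86%. No background was removed from the mitochondrial counts, so only the denominator changed. On the log2 scale the difference was 2.26, and it was 1.92 without pup replicate 1 and 2.72 without pup replicate 2.

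Each class of mitochondrial RNA followed this order. The 13 mRNAs together held 4.44%, 4.84%, 0.637% and 1.08% of gene counts, and the 2 rRNAs held 2.31%, 2.46%, 0.428% and 0.780%. Among the mRNAs, complex I genes held 2.20%, 2.18%, 0.309% and 0.513%. mt-Cytb, the complex III gene, held 1.33%, 1.54%, 0.177% and 0.330%. Complex IV genes, in effect mt-Co1, held 0.919%, 1.11%, 0.151% and 0.235%. In none of these classes did a pup library reach an adult one. Complex V genes could not be counted.

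**Figure D2:**
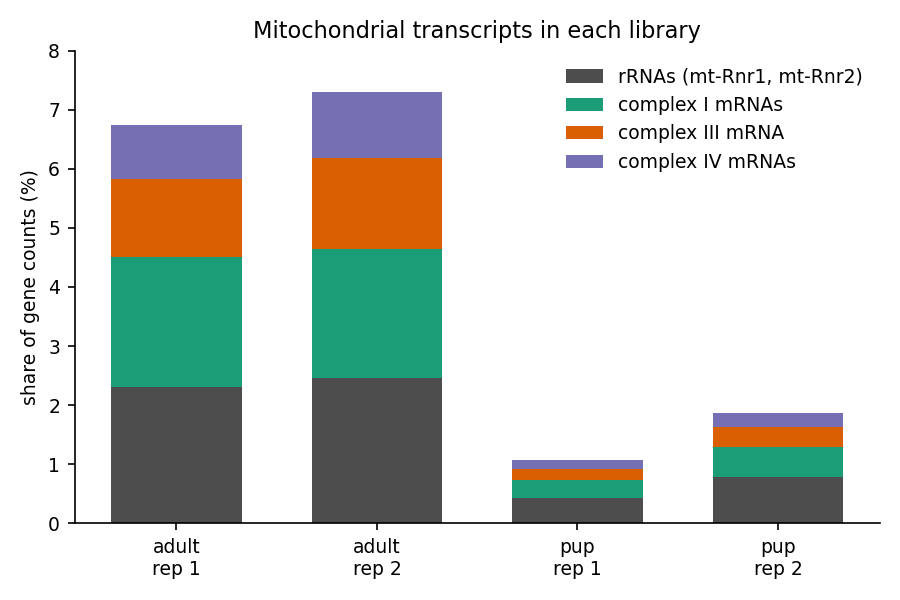
Share of all gene counts (percent) taken by mitochondrial rRNAs and by the mRNAs of complexes I, III and IV, stacked for each of the 4 libraries. The adult stacks reach 6.76% and 7.30%, and the pup stacks 1.07% and 1.86%.

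Per length, these were among the most counted genes of every library. Ranked by counts per kb of exon, mt-Rnr2, the large rRNA, was gene number 4, 3, 5 and 5 of all genes in the 4 libraries. mt-Cytb was number 5, 4, 10 and 8, mt-Nd1 was number 6, 7, 14 and 10, and mt-Co1 was number 7, 8, 19 and 17. mt-Nd6, at 18, 26, 91 and 111, and mt-Nd5, at 19, 24, 74 and 102, were the lowest of the well counted mRNAs. These ranks use the full exon length, also where part of it cannot be counted.

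Counting only the positions whose 50-base window is not in a nuclear transcript changes the order among the genes. Per kb of such sequence, mt-Rnr2 had 180696, 234377, 18464 and 98471 counts, mt-Co1 had 173295, 252059, 15034 and 69008, and mt-Cytb had 166954, 233703, 11787 and 64859. mt-Co1 was above mt-Cytb in every library on this scale, while its rank by full exon length was below that of mt-Cytb in every library. This order rests on the window length. For mt-Co1 the share in nuclear transcripts was 51.1% with windows of 50 bases and 30.8% with windows of 100 bases. For mt-Cytb it was 0% with both. With windows of 100 bases mt-Cytb was above mt-Co1 in every library. Which length fits the reads is unknown, since the read length is not given. With windows of 50 bases, mt-Rnr2 was the highest in 3 libraries and mt-Co1 in adult replicate 2. Next came mt-Nd1 with 125320, 144827, 10237 and 51636, mt-Nd4 with 106008, 134633, 8456 and 40183, and mt-Nd2 with 72188, 88177, 4181 and 24862. mt-Rnr1, the small rRNA, had 48926, 58657, 3526 and 20160 counts per kb, well below the large rRNA in every library. mt-Nd5 (33234, 39292, 2520 and 9796) and mt-Nd6 (34026, 38528, 2243 and 9396) were the lowest 2, and their order changed between libraries.

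Of the 37 genes, 16 passed the filter on low counts and entered the fit over all 16320 genes tested: 8 mRNAs, both rRNAs and 6 tRNAs. For mt-Tl1, mt-Ta and mt-Nd3 it was the adult libraries alone that met the filter, so a direction over all 16 is partly set by the filter. The other 21 genes did not pass. Of these, 8 had no count in any library, and the highest count of the rest was 12.

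The rRNAs form the core of the mitochondrial ribosome. mt-Rnr2 (chrM:1094-2675), of the large subunit, stood at 21007, 25597, 3031 and 7848 CPM. mt-Rnr1 (chrM:70-1024), of the small subunit, stood at 3397, 3826, 346 and 960 CPM. In both genes the adults were close to each other and above both pups, while the pups differed from each other by more than the adults did. The log2 fold change, positive where adult is higher, was 2.10 ± 2.78 (SE) for mt-Rnr2, with an edgeR adjusted p of 0.810, and 2.47 ± 1.30 for mt-Rnr1, with an edgeR adjusted p of 0.469. DESeq2 gave adjusted p of 0.00531 and 0.000907 for the same genes.

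Complex I, which takes electrons from NADH, has 7 subunits encoded here, of which 5 were well counted. mt-Nd1 (chrM:2751-3707) stood at 8720, 9467, 1006 and 2463 CPM, and mt-Nd2 (chrM:3914-4951) at 5023, 5764, 411 and 1186 CPM. mt-Nd4 (chrM:10167-11544) stood at 4078, 4866, 459 and 1060 CPM, and mt-Nd5 (chrM:11742-13565) at 4177, 4639, 447 and 844 CPM. In all 4 genes both adults exceeded both pups, and pup replicate 1 was the lowest library. The log2 fold changes were 2.39 ± 1.85 for mt-Nd1, 2.76 ± 1.52 for mt-Nd2, 2.56 ± 1.39 for mt-Nd4 and 2.77 ± 1.36 for mt-Nd5, with edgeR adjusted p of 0.647, 0.492, 0.483 and 0.434. The DESeq2 adjusted p were 0.000564, 0.000207, 0.000112 and 7.29e-07.

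mt-Nd6 (chrM:13552-14070) is the only mRNA gene on the minus strand. It stood at 1226, 1304, 114 and 232 CPM, with both adults above both pups. The log2 fold change was 2.87 ± 0.88, the highest point estimate among the 16 genes. Its edgeR p was 0.0165 unadjusted and 0.284 adjusted, and its DESeq2 adjusted p was 1.56e-06. Without strand, reads of mt-Nd6 cannot be told apart from reads of plus-strand RNA that spans the gene. mt-Nd3, nearly all of which has a nuclear copy, stood at 6.28, 6.70, 0.216 and 2.31 CPM, with a log2 fold change of 2.34 ± 1.83, an edgeR adjusted p of 0.653 and a DESeq2 adjusted p of 0.506.

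Cytochrome b, encoded by mt-Cytb (chrM:14145-15288), is the only subunit of complex III from the mitochondrial genome. It stood at 14010, 18423, 1397 and 3731 CPM, with a log2 fold change of 2.66 ± 2.37, an edgeR adjusted p of 0.696 and a DESeq2 adjusted p of 0.000208. mt-Co1 (chrM:5328-6872) encodes the catalytic subunit of cytochrome c oxidase, complex IV. It stood at 9708, 13265, 1189 and 2650 CPM, with a log2 fold change of 2.58 ± 2.03, an edgeR adjusted p of 0.655 and a DESeq2 adjusted p of 9.16e-05. Both genes were higher in both adults than in either pup, and adult replicate 2 was the highest library for each. mt-Co2 and mt-Co3, the other complex IV genes, and mt-Atp6 and mt-Atp8 of complex V gave no usable count.

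The tRNAs carried very few of the counts: 729, 734, 94 and 324 in all, of which the 8 genes on the minus strand held 653, 678, 77 and 301. The kit primes cDNA at poly(A) tails, which mature tRNAs lack, and the genes are only 59 to 75 bases long, so these counts are not tRNA levels. Of the 22 genes, 7 had no count. Without strand, reads over a minus-strand tRNA gene cannot be told apart from reads of plus-strand RNA that spans it. The split by strand is thus one of gene positions and not of RNA. The 4 with the highest mean CPM are shown because they hold most of these counts and all lie on the minus strand. Capitals mark the anticodon, which a script took as the middle of a 7-base loop closed by a 5-base stem.

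mt-Tp: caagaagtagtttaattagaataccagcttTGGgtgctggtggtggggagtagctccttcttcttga
mt-Tq: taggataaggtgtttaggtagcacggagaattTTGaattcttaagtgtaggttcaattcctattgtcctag
mt-Tc: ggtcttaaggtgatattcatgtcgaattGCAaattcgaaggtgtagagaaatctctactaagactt
mt-Te: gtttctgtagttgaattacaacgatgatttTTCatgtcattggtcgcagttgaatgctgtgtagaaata

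mt-Tp, the proline tRNA gene at chrM:15356-15422, had 418, 352, 33 and 100 counts, or 32.0, 25.3, 3.57 and 5.25 CPM. The adults lay above the pups. The log2 fold change was 2.70 ± 0.79, with an edgeR p of 0.0132 unadjusted and 0.272 adjusted and a DESeq2 adjusted p of 0.0166. mt-Tq, the glutamine tRNA gene at chrM:3772-3842, stood at 4.75, 11.4, 2.92 and 6.57 CPM. Here the ages overlapped, since pup replicate 2 exceeded adult replicate 1, and the log2 fold change was 0.76 ± 1.40 with an edgeR adjusted p of 0.868. Without adult replicate 2 it was -4.08e-05, so its direction rests on that library.

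mt-Tc, for cysteine, at chrM:5192-5257, stood at 6.51, 5.40, 1.19 and 2.26 CPM, with a log2 fold change of 1.78 ± 1.60 and an edgeR adjusted p of 0.702. mt-Te, for glutamate, at chrM:14071-14139, stood at 4.90, 5.11, 0.541 and 1.21 CPM, with a log2 fold change of 2.50 ± 1.75 and an edgeR adjusted p of 0.603. Both were higher in both adults than in either pup. The remaining tRNAs in the fit, mt-Tl1 and mt-Ta, had at most 52 counts in a library and log2 fold changes of 2.73 ± 1.81 and 2.19 ± 2.13.

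Over the 16 genes in the fit, edgeR's quasi-likelihood test called 0 at an adjusted p under 0.05, beside 0.00% of the 16320 genes tested in either direction. At an unadjusted p under 0.05, 2 genes were higher in adult, mt-Nd6 and mt-Tp, and 0 lower, beside 5.99% of all genes higher and 8.49% lower. DESeq2, which gave an adjusted p for 15 of the 16 (none for mt-Ta) and for 15370 genes in all, called 10 higher in adult, both rRNAs, the 7 well counted mRNAs and mt-Tp, and 0 lower. Of its 15370 genes it called 3.97% higher and 5.61% lower. limma-voom called 0, where it called 0.00% of all genes in that direction. The call thus depends on the tool.

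The direction was shared more widely than the calls. Both adult libraries exceeded both pup libraries for 15 of the 16 genes, all but mt-Tq, against 21.8% of all genes tested. For mt-Tl1, mt-Ta and mt-Nd3 only the adult libraries met the filter, so their direction was partly set by it. The log2 fold change was positive for all 16, against 42.9% of all genes, with a median of 2.53 beside -0.24 over all genes. Without pup replicate 1 the median was 2.06, and without pup replicate 2 it was 3.28. After subtraction of the estimated background from nuclear genes, with none taken from the mitochondrial genes, it was 2.35. In the 13 alternatives the sign was positive for every one of the 16 genes, except mt-Tq without adult replicate 2.

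**Figure D3:**
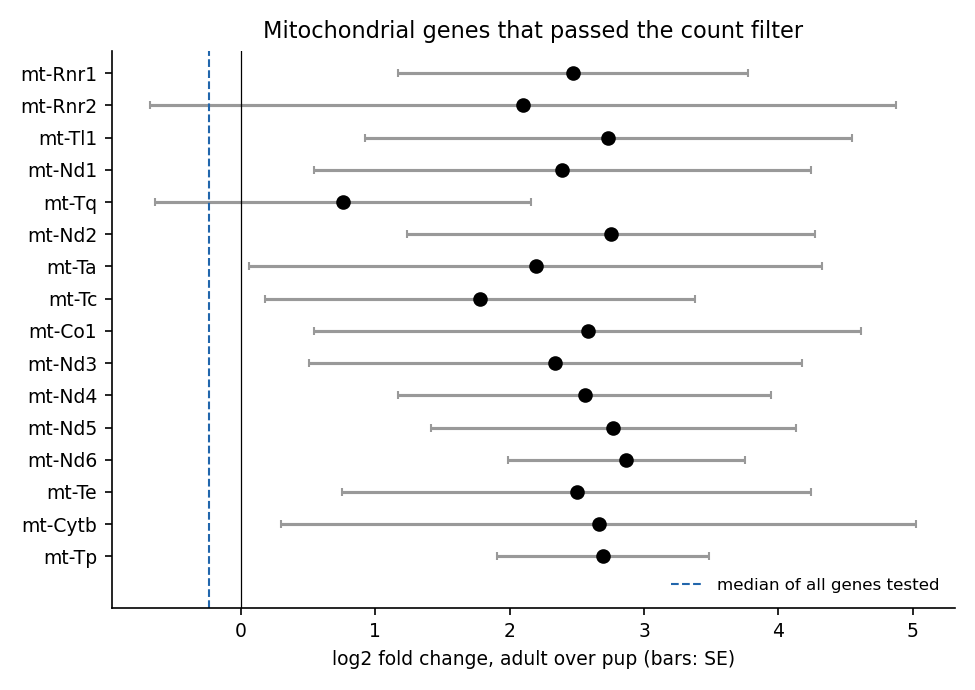
Log2 fold change, adult over pup, of the 16 mitochondrial genes in the fit, with bars of 1 standard error from edgeR, in genome order. All points lie above 0 and above the dashed median of all genes tested (-0.24), and the bars of mt-Rnr2 and mt-Tq cross 0.

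Within the mitochondrial counts, the balance between rRNA and mRNA also differed. Because the kit primes cDNA at poly(A) tails, these counts need not reflect the amounts of rRNA and mRNA alike. The rRNAs made up 34.2%, 33.7%, 40.2% and 42.0% of the counts of the 37 genes, and the mRNAs 65.7%, 66.2%, 59.7% and 58.0%. mt-Rnr2 alone made up 29.4%, 29.4%, 36.0% and 37.4%. Relative to the 7 well counted mRNAs, mt-Rnr2 stood at 0.448, 0.443, 0.603 and 0.645. The adult replicates were close to equal, and both pups were higher. The mean ratio was 0.445 ± 0.00290 (SD, n = 2) in adults and 0.624 ± 0.0294 (SD, n = 2) in pups, with an exact permutation p of 0.333. The log2 difference was -0.49, and it was -0.53 without pup replicate 1, the library with the high background.

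mt-Rnr1 did not move with mt-Rnr2. Its ratio to the same mRNAs was 0.0724, 0.0663, 0.0688 and 0.0789, with the ages overlapping. The ratio of mt-Rnr2 to mt-Rnr1 was 6.18, 6.69, 8.77 and 8.18, higher in both pups. The 2 rRNA genes are neighbours, parted by a tRNA gene of 69 bases, mt-Tv.

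**Figure D4:**
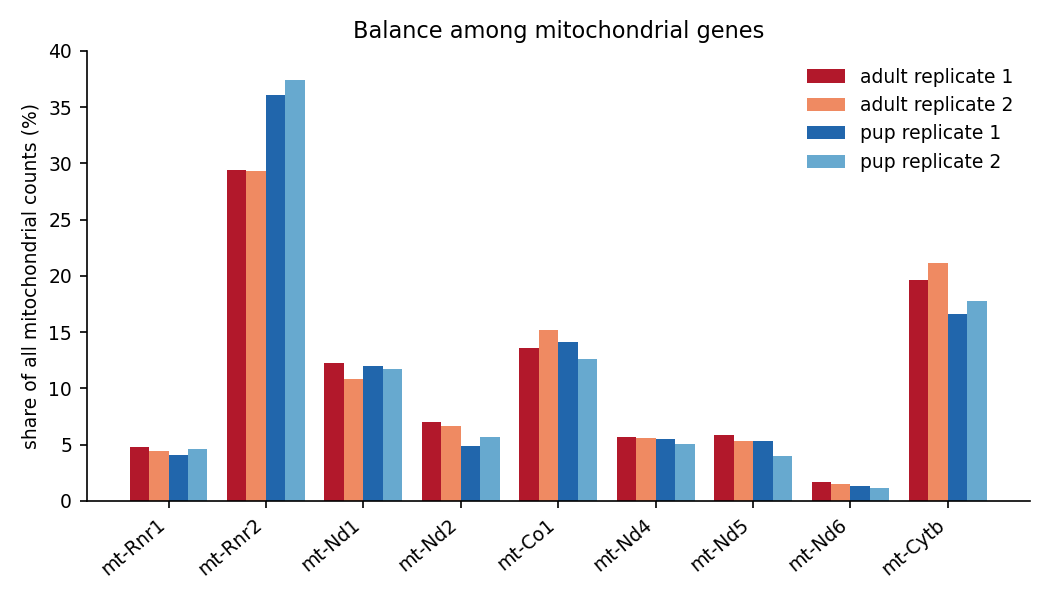
Share of all mitochondrial counts (percent) taken by each of the 9 well counted mitochondrial genes in the 4 libraries. mt-Rnr2 takes 29.4% in both adults and 36.0% and 37.4% in the pups, while mt-Cytb takes 19.6% and 21.1% in adults and 16.6% and 17.8% in pups.

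Among the 9 well counted genes, the counts of any 2 form 36 ratios, and in 20 of them, 55.6%, the ages did not overlap. Over all genes tested, the CPM of 21.8% did not overlap with adult higher and of 27.1% with pup higher. Each of the 8 ratios with mt-Rnr2 was in that number, with mt-Rnr2 relatively higher in pups, and so were 6 of the 8 with mt-Nd1 and 6 of the 8 with mt-Nd6. Of the 28 ratios without mt-Rnr2, 12 did not overlap, a share no larger than that over all genes. These ratios share genes and are not independent of each other.

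Between mRNAs, no more genes stood apart by age than among all genes tested. As a share of the 13 mRNAs, mt-Nd1 held 18.6%, 16.4%, 20.0% and 20.2%, higher in pups. mt-Nd2 held 10.7%, 9.98%, 8.18% and 9.75%, higher in adults. mt-Nd4 held 8.69%, 8.43%, 9.14% and 8.71%, higher in pups by a margin smaller than the spread within either age. These 3 of the 7 genes did not overlap between ages, beside 21.8% of all genes with adult higher and 27.1% with pup higher. The direction turned with the denominator: as a share of the 37 genes mt-Nd4 held 5.71%, 5.58%, 5.46% and 5.05%, higher in adults, and mt-Nd1 overlapped, with 12.2% and 10.9% in the adults on either side of 11.7% in pup replicate 2. The ratio of mt-Nd1 to mt-Nd2, 2 complex I genes that lie close together, was 1.74, 1.64, 2.45 and 2.08.

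The other 4 genes overlapped between the ages. mt-Cytb held 29.8%, 31.9%, 27.8% and 30.7% of the mRNA counts and had the most counts in every library. Per kb of sequence not found in nuclear transcripts, which of mt-Co1 and mt-Cytb was higher rested on the window length, as given earlier. mt-Co1 held 20.7%, 23.0%, 23.7% and 21.8%, and mt-Nd5 held 8.90%, 8.04%, 8.90% and 6.94%. mt-Nd6 held 2.61%, 2.26%, 2.27% and 1.91%. As a percentage of the other 6 mRNAs, mt-Nd6 stood at 2.68, 2.31, 2.32 and 1.94, with the ages overlapping. With single libraries left out, between 4 and 6 genes did not overlap, because a lone library overlaps less often.

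The nuclear genes that copy and express the mitochondrial genome were read from the same fit, as 7 lists of 166 symbols, of which 165 matched and 162 were tested. edgeR called 0 of the 162 and limma-voom called 0, while DESeq2 called 3 higher in adult, a smaller share than the 3.97% over all genes. At an unadjusted p under 0.05, edgeR had 14 higher in adult, beside 5.99% of all genes. Log2 fold changes were positive for 127 and negative for 35, with a median of 0.62. Both adults exceeded both pups for 76 and both pups exceeded both adults for 9, against 21.8% and 27.1% of all genes.

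In the 14 genes of DNA replication and upkeep, 9 fold changes were positive and 5 negative, with a median of 0.23. Polg, the catalytic subunit of the mitochondrial DNA polymerase, stood at 36.0, 33.7, 71.2 and 43.6 CPM, higher in both pups, with a log2 fold change of -0.72 ± 0.49. Twnk, the helicase of the replication fork, stood at 38.9, 13.8, 29.4 and 27.3 CPM and overlapped. Mpv17, an inner membrane protein needed to keep mitochondrial DNA, stood at 63.5, 51.5, 31.9 and 67.2 CPM, also with overlap. No gene of this list passed the test in either tool. The list's median was -0.16 with library totals in place of TMM, 0.17 without pup replicate 1 and 0.04 without pup replicate 2.

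The 8 tested transcription genes split evenly, 4 positive and 4 negative, with a median of 0.00. This split rests on pup replicate 1 and on the scaling: 7 were positive with a median of 0.40 without that library, the median was 0.58 after subtraction of its background, and with library totals 3 were positive with a median of -0.43. Polrmt, the mitochondrial RNA polymerase, stood at 28.9, 8.57, 13.4 and 14.6 CPM, with the adults on both sides of the pups. Tfam, which packs mitochondrial DNA and starts transcription, stood at 72.0, 36.7, 26.5 and 36.9 CPM, and its log2 fold change was 0.78 ± 0.55. Here adult replicate 2 and pup replicate 2 were nearly level. Tfb2m, the initiation factor, stood at 8.66, 6.62, 9.85 and 7.62 CPM with overlap.

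Tefm, the elongation factor of mitochondrial transcription, was the one of these factors with the ages apart and higher in adult. It stood at 25.9, 15.3, 6.60 and 4.15 CPM, with a log2 fold change of 1.94 ± 0.93 and an edgeR adjusted p of 0.426. Lrpprc, which binds and stabilizes mitochondrial mRNAs, stood at 62.5, 49.7, 62.3 and 18.3 CPM, high in pup replicate 1 and low in pup replicate 2, with a log2 fold change of 0.48 ± 0.67. Slirp, its partner, had 1, 1, 0 and 0 counts and was not tested.

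RNA processing genes (17 tested) had 13 positive and 4 negative fold changes and a median of 0.21. The 2 with the highest mean CPM were Hsd17b10, a subunit of the enzyme that cuts the tRNA 5′ ends, at 174, 117, 86.3 and 189 CPM, and Rexo2, which degrades short RNA pieces, at 115, 152, 98.7 and 132 CPM. Both overlapped between ages. Genes that modify rRNA and tRNA (17 tested) had 8 positive and 9 negative fold changes and a median of -0.08, with Mto1 at -0.15 and Trnt1 at 0.30. tRNA synthetases (17 tested) had 11 positive and 6 negative and a median of 0.21. Among them Iars2 had a log2 fold change of 0.15. Lars2, the leucine enzyme, stood at 8143, 11196, 3200 and 13512 CPM with a log2 fold change of 0.21 ± 2.23 and the ages overlapping. It made up most of the list's summed CPM of 8506, 11573, 3558 and 13739. Iars2, the next by mean CPM, stood at 46.5, 89.3, 65.6 and 56.4 CPM. Whether all reads counted for Lars2 came from its RNA was not tested. With library totals in place of TMM the medians of the processing, modification and synthetase lists were -0.05, -0.50 and -0.27, and that of all genes was -0.62. Without pup replicate 1 the medians of these 3 lists were 0.06, 0.35 and 0.90, with 14 of the 17 synthetases positive, and without pup replicate 2 they were 0.44, -0.00317 and -0.01.

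Most translation genes had positive fold changes. Among 12 translation factors, 9 fold changes were positive and 3 negative, with a median of 1.09, and both adults exceeded both pups for 6, beside 21.8% of all genes. Leaving out adult replicate 1 gave a median of 0.51, leaving out pup replicate 1 gave 1.04 and leaving out the other pup gave 0.66. Gfm1, the elongation factor that moves the ribosome along, stood at 121, 101, 25.6 and 52.3 CPM, with a log2 fold change of 1.51 ± 0.54. Tufm, which brings tRNAs to the ribosome, stood at 56.9, 47.2, 16.4 and 32.0 CPM, with a log2 fold change of 1.10 ± 0.55. Both adults exceeded both pups for each of these factors, and neither passed the test in edgeR or DESeq2.

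Of 77 tested mitoribosomal protein genes, 73 had positive and 4 negative fold changes, with a median of 0.94, and both adults exceeded both pups for 54, beside 21.8% of all genes. edgeR called 0 of them and had 12 higher in adult at an unadjusted p under 0.05, beside 5.99% of all genes. Mrpl4 and Mrpl42, the 2 with the highest mean CPM, had log2 fold changes of 1.08 ± 0.56 and 1.14 ± 0.54. The 3 that DESeq2 called, beside 3.97% of all genes, were Mrpl12, Mrpl46 and Mrps25. Mrpl12 stood at 129, 68.2, 11.6 and 26.8 CPM, with a log2 fold change of 2.36 ± 0.64, an edgeR adjusted p of 0.261 and a DESeq2 adjusted p of 0.0188. Without adult replicate 2, which leaves a lone adult library, the log2 fold change of Mrpl12 was 2.75. That of Fastkd3, an RNA processing gene with 0 CPM in adult replicate 1, was then -10.6. The number of positive fold changes among mitoribosomal genes was 68 with library totals and 70 without pup replicate 1, where the median was 0.66. Without pup replicate 2 the median was 1.51.

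Nuclear genes for the respiratory complexes whose other subunits are mitochondrial had mostly positive fold changes. All 36 complex I genes had positive fold changes, with a median of 1.44 (35 of 36 positive without pup replicate 1 or without adult replicate 1), and both adults exceeded both pups for 35. All 9 complex III genes (median 1.95) and all 11 complex IV genes (median 1.95) were positive, with both adults above both pups in each. In complex V, 13 of 14 were positive, with a median of 1.69, and both adults exceeded both pups for 13. Over all genes, 42.9% had a positive fold change and 21.8% had both adults above both pups. edgeR called 0 in each list, while DESeq2 called 3, 5, 4 and 2 higher in adult and 0 lower, beside 3.97% of all genes higher and 5.61% lower. The complex medians were 0.88, 1.43, 1.33 and 1.10 without pup replicate 1 and 2.37, 2.78, 3.01 and 2.88 without pup replicate 2.

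For complex I, DESeq2 called Ndufs7, Ndufv1 and Ndufb10. Ndufs7, a subunit that holds an iron-sulphur cluster, stood at 376, 318, 67.7 and 129 CPM, with a DESeq2 adjusted p of 0.0103. Ndufa13 and Ndufa11, the 2 with the highest mean CPM, had log2 fold changes of 1.42 and 0.59. Ndufa11 was the one complex I gene whose ages overlapped, at 599, 297, 135 and 462 CPM.

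For complex III, the calls were Uqcrfs1, Cyc1, Uqcrb, Uqcr10 and Uqcr11. Uqcr10, a small subunit, stood at 1010, 453, 72.4 and 173 CPM, with a log2 fold change of 2.58 ± 0.85 and a DESeq2 adjusted p of 0.00300. Uqcrc1, a core subunit, had a log2 fold change of 1.61 ± 0.84. For complex IV, DESeq2 called Cox5a, Cox7a2, Cox7b and Cox8a. Cox8a stood at 1474, 824, 112 and 418 CPM, with a log2 fold change of 2.12 and a DESeq2 adjusted p of 0.0390, and Cox4i1 had a log2 fold change of 1.25.

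For complex V, DESeq2 called Atp5b and Atp5j. Atp5b, the catalytic beta subunit of ATP synthase, stood at 5919, 3765, 666 and 1847 CPM, with a log2 fold change of 1.95 ± 1.47 and a DESeq2 adjusted p of 0.0248. Atp5a1, its alpha subunit, had a log2 fold change of 1.63. The one negative gene, named after its values were seen, was Atp5l at 8.89, 1.51, 47.6 and 3.36 CPM, high in pup replicate 1 alone, and its fold change was positive without that library. Among 20 other mitochondrial membrane and matrix proteins, 19 fold changes were positive, with a median of 0.78 (0.55 without pup replicate 1). Both adults were above both pups for 14, beside 21.8% of all genes. DESeq2 called 1 of the 20 higher in adult, a share near the 3.97% over all genes. That gene was Slc25a3, the phosphate carrier, with a log2 fold change of 1.49 ± 0.80 and a DESeq2 adjusted p of 0.0412. Hspa9, a matrix chaperone, had a log2 fold change of 1.28.

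**Figure D5:**
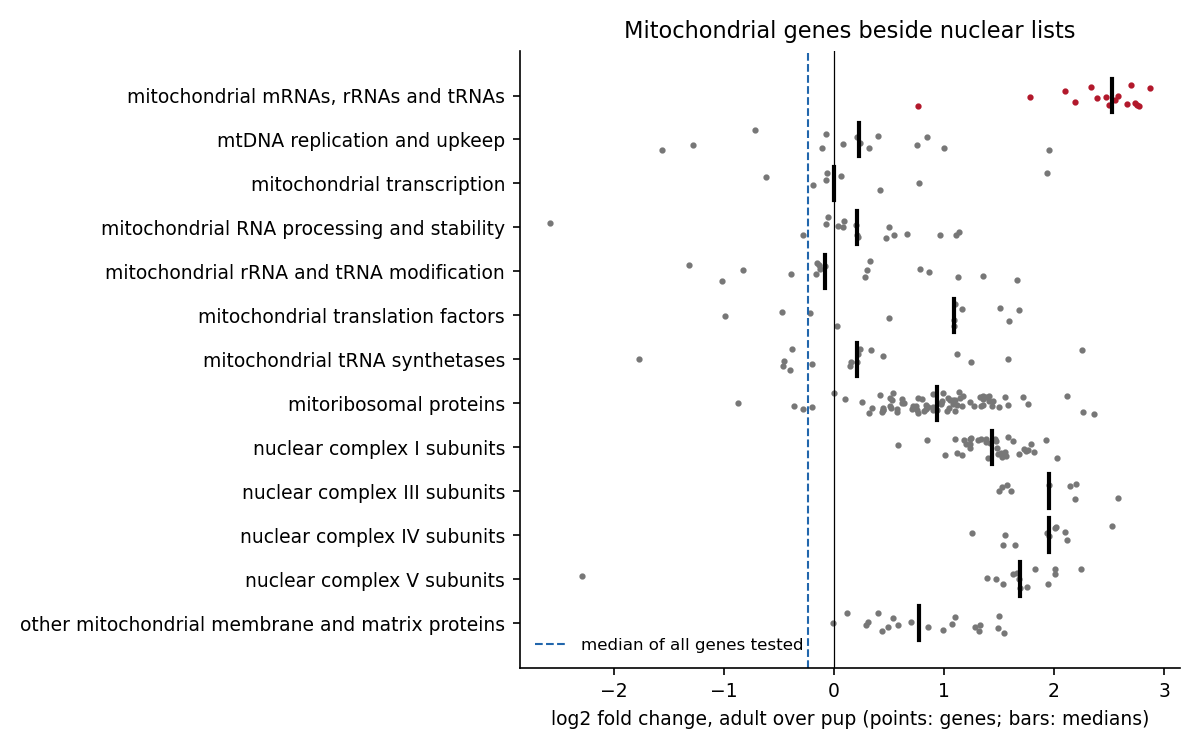
Log2 fold change, adult over pup, of each tested gene (points) in the mitochondrial genes (red) and 12 nuclear lists (grey), with the median of each list as a bar and that of all genes as a dashed line. The medians are 2.53 for the mitochondrial genes, 1.44 to 1.95 for the nuclear subunits of complexes I, III, IV and V, and -0.08 to 1.09 for the 7 lists that copy and express the mitochondrial genome.

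The adult libraries differed from each other in the proportion of mitochondrial to nuclear subunit RNA. For complex I, the mitochondrial sum was 23231, 26047, 2438 and 5788 CPM and the nuclear sum was 10805, 6925, 1757 and 4941 CPM. Their ratio was 2.15, 3.76, 1.39 and 1.17, higher in both adults. For complex III the sums were 14010, 18423, 1397 and 3731 CPM against 5842, 3260, 670 and 1748 CPM, a ratio of 2.40, 5.65, 2.08 and 2.13. Adult replicate 1 was near the pups and adult replicate 2 far above them. For complex IV the ratio was 0.956, 2.34, 1.07 and 0.755, and the ages overlapped. These sums leave out the mitochondrial members that could not be counted, so the ratios compare libraries and are not subunit proportions. Adult replicate 2 is also the library with the high acinar marker sum, and its part in these ratios was not tested.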

How the data were processed

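RNA was measured in 4 libraries of sorted mouse submandibular gland cells, 2 adult and 2 pup, grouped by their titles. The deposited values are raw read counts per gene. The submitters' processing notes name cutadapt 1.18, STAR 2.5.2a, HTSeq 0.11.0, R 3.5.1, DESeq2 1.20.0 and GRCm38. For the options, annotation release, strand setting and read length, the sources used here give nothing. HTSeq's tallies outside genes (32.9%, 32.3%, 84.4% and 31.5% of all reads tallied) entered neither library sizes nor tests. A pair of further tables, with 8 value columns, was not used because their columns match no single sample.

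The main test was edgeR 4.0.16 (R 4.3.3), quasi-likelihood, on counts as deposited, with TMM, filterByExpr (minimum count 10, total 15), no term beside age, and a Benjamini-Hochberg threshold of 0.05 over 16320 genes (common biological coefficient of variation 0.895). Standard errors are the absolute log2 fold change over the square root of F. Alternatives were other scalings and filters, DESeq2 1.42.0, limma-voom (limma 3.58.1), a replicate block and each library left out. A further alternative subtracted a background from the nuclear genes of pup replicate 1 and none from the mitochondrial genes. The code was tested on data simulated with less noise than these libraries show. That checks the code and not its error rates here. Replicates differed beyond counting noise (chi-square per degree of freedom 225 for adults and 158 for pups).

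Windows of 50 bases were compared with annotated nuclear transcripts of GENCODE vM21, since no genome sequence was used, so unannotated copies are missed. The genes and lists were chosen with earlier results of these data known. Named were all mitochondrial mRNAs and rRNAs, the 4 tRNAs and 3 nuclear copies with the most counts, Tfam, Polrmt, Tfb2m, Tefm, Lrpprc, Slirp, Polg and Twnk, and per nuclear list up to 6 called members and the 2 of highest mean CPM. As edgeR called none, the DESeq2 calls were named. The symbols Prorp and Atp5pb matched no gene in the lists.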

Additional observations from a re-analysis of the deposited data

How the results depend on the processing

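Of the values that answer a comparison, 54 of 66 stayed on their side of the threshold or within the replicate spread. DESeq2 called 10 mitochondrial genes and 3 machinery genes higher in adult where edgeR called 0. Calls among machinery genes with single libraries left out are not read, since the lone library is assumed to vary like the other age. The log2 difference in mitochondrial share, 2.26, became 2.72 over all reads tallied and ranged from 1.92 to 2.72 with single libraries left out. The number of mRNAs whose shares did not overlap, 3, became 5 as shares of the 37 genes and ranged from 4 to 6 with single libraries left out. The log2 difference in mt-Rnr2 over mRNA, -0.49, became -0.32 as a share of the 37 genes and ranged from -0.53 to -0.44 with single libraries left out.

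Directions that reversed were close to 0. The log2 share difference of mt-Co1 became 0.11, and that of mt-Nd4 0.10, as shares of the 37 genes. With single libraries left out, that of mt-Co1 ranged from -0.14 to 0.016 (0.016 without adult replicate 1, 0.00318 without pup replicate 1), that of mt-Nd5 from -0.073 (without pup replicate 2) to 0.29, and the log2 fold change of mt-Tq from -4.08e-05 (without adult replicate 2) to 1.46. The cause was not tested.

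The replicate numbers showed no sign of pairing the samples (correlation of deviations from the age means -0.03, over 2 pairs). So few pairs cannot decide whether samples of the same number share a batch. With the replicate block, edgeR called 0 mitochondrial genes and 0 machinery genes, and mt-Nd6 had a log2 fold change of 2.96. Over all genes edgeR called 229 higher and 161 lower in adult when adult replicate 1 was left out, 247 and 733 when the other adult was, 13 and 2 with 10 counts required in every library of an age, and 284 and 231 with no filter. In fits without a library the lone sample is assumed to vary like the other age. Scaling shifted the median of all genes by -0.38 under library totals, and the median of the mitochondrial genes was then 2.29. The 9 well counted genes had at least 1054 counts in every library, while the tRNAs had at most 418 and 6 mRNAs at most 93, so small differences in these were not detectable at this depth.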
